A study of Mus musculus with 8 samples.

Results

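The metallothionein genes Mt1 and Mt2, the metal-sensing transcription factor gene Mtf1 and 6 zinc transporter genes (Slc30a1, Slc30a5, Slc30a7, Slc39a1, Slc39a10 and Slc39a14) were followed through RNA-seq of mouse embryonic stem cells (mESCs) with and without Importin-13 (IPO13). The 9 genes were taken by their symbols from the 23420 gene rows of the count tables, and all 9 had counts in every library. The largest differences among the 9 genes were those of Slc30a1, Mt1 and Slc39a10. Slc30a1 was higher in IPO13-/- cells with and without stress, and Slc39a10 was lower after oxidative stress in both genotypes. Mt1 was highest in stressed IPO13-/- cells, and so was Mt2. The stress-induced rise of Mt1 and Mt2 was larger in IPO13-/- than in IPO13+/+ cells in the main test. That call held in 10 of 16 alternatives for Mt1 and in 2 of 16 for Mt2.

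RNA was sequenced from IPO13+/+ (wild type) and IPO13-/- ESC lines, both of the 129 x C57BL/6 background and derived from blastocysts at day 5 before implantation. All cells were kept without feeder cells in medium with serum and LIF, the cytokine that holds mouse ESCs in the pluripotent state. Cells of each genotype were left untreated or exposed for 1 h to 125 µM H2O2, with 2 h in clean medium before harvest, and each of the 4 groups comprised 2 libraries. The comparisons ask how the genes responded to H2O2 in each genotype, how they differed between genotypes, and whether the response depended on IPO13. The sources used here do not say whether the libraries of a group came from separate cultures, so p-values measure the spread between these libraries, which may be technical. Each genotype is a cell line, and the number of clones behind it is not given in the sources used here, so a difference between genotypes and a difference between lines cannot be told apart.

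Zinc is bound in the cytoplasm by metallothioneins, small cysteine-rich proteins that also scavenge oxidants and release zinc when their cysteines are oxidised. Free zinc activates MTF1, which binds metal response elements (MREs) in the promoters of Mt1, Mt2 and Slc30a1. The SLC30 (ZnT) transporters move zinc out of the cytoplasm, either across the plasma membrane or into vesicles and the secretory pathway, and the SLC39 (ZIP) transporters move it in.

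Mt1 and Mt2 are neighbours on chromosome 8 of GRCm38, on the plus strand, with Mt2 at 94172664 to 94173568 and Mt1 at 94179082 to 94180327 in the GENCODE M21 annotation. Slc30a1 lies on chromosome 1 at 191906767 to 191913247, also on the plus strand. The 250 bases before the RefSeq start of these 3 genes (build GRCm38.p6, plus strand) are shown because the 3 genes were higher after H2O2 and in IPO13-/- cells. Capitals mark matches, on either strand, to the MRE core (TGCACNC or TGCGCNC) and to the antioxidant response element (ARE, TGACNNNGC), the site of NRF2.

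Mt2, chr8:94172368-94172617: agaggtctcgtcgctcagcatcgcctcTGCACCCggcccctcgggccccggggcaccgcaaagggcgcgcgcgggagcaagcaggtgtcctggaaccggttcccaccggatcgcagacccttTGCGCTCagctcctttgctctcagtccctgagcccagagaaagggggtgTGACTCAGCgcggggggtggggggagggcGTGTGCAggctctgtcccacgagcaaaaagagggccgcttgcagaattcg
Mt1, chr8:94178839-94179088: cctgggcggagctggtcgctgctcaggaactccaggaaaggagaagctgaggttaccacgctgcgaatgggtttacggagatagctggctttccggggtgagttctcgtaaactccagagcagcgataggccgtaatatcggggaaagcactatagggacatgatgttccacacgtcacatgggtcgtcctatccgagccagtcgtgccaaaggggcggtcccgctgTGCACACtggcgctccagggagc
Slc30a1, chr1:191906531-191906780: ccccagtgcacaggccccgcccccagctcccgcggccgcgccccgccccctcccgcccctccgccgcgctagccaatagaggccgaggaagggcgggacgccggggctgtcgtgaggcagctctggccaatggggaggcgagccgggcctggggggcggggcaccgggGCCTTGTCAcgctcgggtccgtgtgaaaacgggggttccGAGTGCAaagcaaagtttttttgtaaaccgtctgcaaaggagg

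The Mt2 window held 3 MRE core matches and 1 ARE match, the Mt1 window 1 MRE core match and no ARE match, and the Slc30a1 window 1 of each. Among 32851 RefSeq windows of the same length, 21.4% held at least 1 MRE core match, 1.26% at least 3, and 10.2% at least 1 ARE match. RefSeq windows were found for 8 of the 9 genes, without Slc39a14. Of the other 5 genes, Slc30a5 had 1 MRE core match, Slc39a1 had 1 ARE match, and Mtf1, Slc30a7 and Slc39a10 had neither. For Slc39a10 the windows before its RefSeq starts at 46925776 and 46853618 were searched. GENCODE starts lie up to 26464 bases downstream of the RefSeq start for Slc30a5, 64397 for Slc30a7 and 89877 for Slc39a10. The bases before such distant starts were not searched.

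Other annotated starts of the metallothionein genes lie downstream of these windows, by up to 152 bases for Mt1 and 242 bases for Mt2. Slc30a1 also has a start 475 bases downstream of its RefSeq start, but only Mt1 and Mt2 were searched further. Between the most upstream GENCODE start and the coding sequence, 4 further MRE core matches and 1 ARE match were found for Mt1, in 229 bases, and 3 MRE core matches for Mt2, in 184 bases. The first pair of MRE core matches in each of these stretches lies within 30 bases.

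Mt1, chr8:94179089-94179118: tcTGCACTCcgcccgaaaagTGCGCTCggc
Mt2, chr8:94172674-94172703: gcGTGTGCAggcggcgggggcGCGTGCAtg

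A match is only a run of letters and was not tested for binding.

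The libraries held between 60397877 and 73789079 counts, and the 9 genes between 1717 and 59891 counts each, far above the 3 counts (0.0407 to 0.0497 CPM, counting error only) taken as the lowest level told from 0. Ipo13 had 68.3 to 72.4 CPM in the IPO13+/+ libraries and 24.9 to 25.9 CPM in the IPO13-/- libraries (log2 fold change -1.44 in untreated cells, edgeR FDR = 9.5e-19), and the part of the gene that was deleted is not given in the sources used here. The summed level of 7 ESC markers lay between 4392 and 4976 CPM, against 5.00 to 7.03 CPM for 6 primitive endoderm markers, 0.564 to 1.62 CPM for 5 visceral endoderm markers, 12.8 to 22.8 CPM for 5 trophectoderm markers and 6.29 to 9.19 CPM for 5 fibroblast markers. No marker of these lists was at 0 in all libraries. The ESC marker sum was 4392 to 4451 CPM in IPO13-/- and 4642 to 4976 CPM in IPO13+/+ libraries, but the ESC markers did not move together. In untreated cells the means of Tfcp2l1 (779 against 1075 CPM), Esrrb (803 against 970 CPM), Pou5f1 and Zfp42 were lower in IPO13-/- than in IPO13+/+ cells. Those of Nanog (569 against 527 CPM) and Klf4 (475 against 433 CPM) were higher, and Sox2 was at 420 against 421 CPM. The trophectoderm sum was 12.8 to 16.2 CPM in treated and 17.2 to 22.8 CPM in untreated libraries. Most of the trophectoderm sum was Eomes, whose mean fell after H2O2 from 17.7 to 12.1 CPM in IPO13+/+ and from 13.3 to 8.25 CPM in IPO13-/- cells. The means of Elf5 and Hand1 rose in both genotypes, and those of Cdx2 and Gata3 only in IPO13-/- cells. The primitive endoderm sum was 5.47 to 7.03 CPM in IPO13+/+ and 5.00 to 5.34 CPM in IPO13-/- libraries, and the visceral endoderm sum 1.28 to 1.62 CPM in treated IPO13+/+ and 0.564 to 0.865 CPM in the other libraries. Apob alone held 1.01 and 1.32 CPM in the treated IPO13+/+ libraries and 0.290 to 0.611 CPM in the others. The part of these differences in the results was not tested. In bulk RNA, more cells with a transcript and more transcript per cell cannot be told apart. The untreated IPO13+/+ pair differed most, with a chi-square per gene between the libraries of 15, against 2.26 to 6.59 in the other groups. For the 9 genes, calls that changed without one of its libraries are given beside the results. For other genes named below, such changes were not examined.

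Levels are given as CPM, each count as a share of the library total scaled by the TMM factor, and on the CPM scale of the deposited tables, and differences as log2 fold changes from edgeR. A gene passed the test at a false discovery rate (FDR, Benjamini-Hochberg over all 19424 genes tested) below 0.05, and 2-fold changes were counted beside it. An exact permutation test of 2 libraries against 2 cannot give a p below 0.333, so all tests rest on the spread shared across genes.

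Mt2 and Mt1 were the most abundant transcripts of the 9 genes. Per kilobase of the longest coding transcript, the level in untreated IPO13+/+ cells was 1206 ± 90.1 CPM per kb (SD, n = 2) for Mt2 and 433 ± 20.4 for Mt1. The other genes followed far below, with 34.7 ± 1.55 CPM per kb for Slc39a14, 20.9 ± 0.377 for Slc30a5, 15.0 ± 0.935 for Slc39a1, 13.6 ± 0.123 for Slc39a10, 5.70 ± 0.375 for Slc30a1, 4.82 ± 0.359 for Mtf1 and 3.17 ± 0.0785 for Slc30a7. Part of this order depended on the transcript length taken. The longest Mt1 transcript (1085 bases) keeps introns that the Mt2 transcript (511 bases) lacks, and with the union of all exons as the length Slc39a14 stood at 16.2, Slc39a1 at 15.0, Slc39a10 at 12.2 and Slc30a5 at 9.12 CPM per kb. Mt1 and Mt2 together took 0.101% and 0.110% of the counts in untreated IPO13+/+ libraries and 0.167% and 0.177% in treated IPO13-/- libraries.

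**Figure D1:**
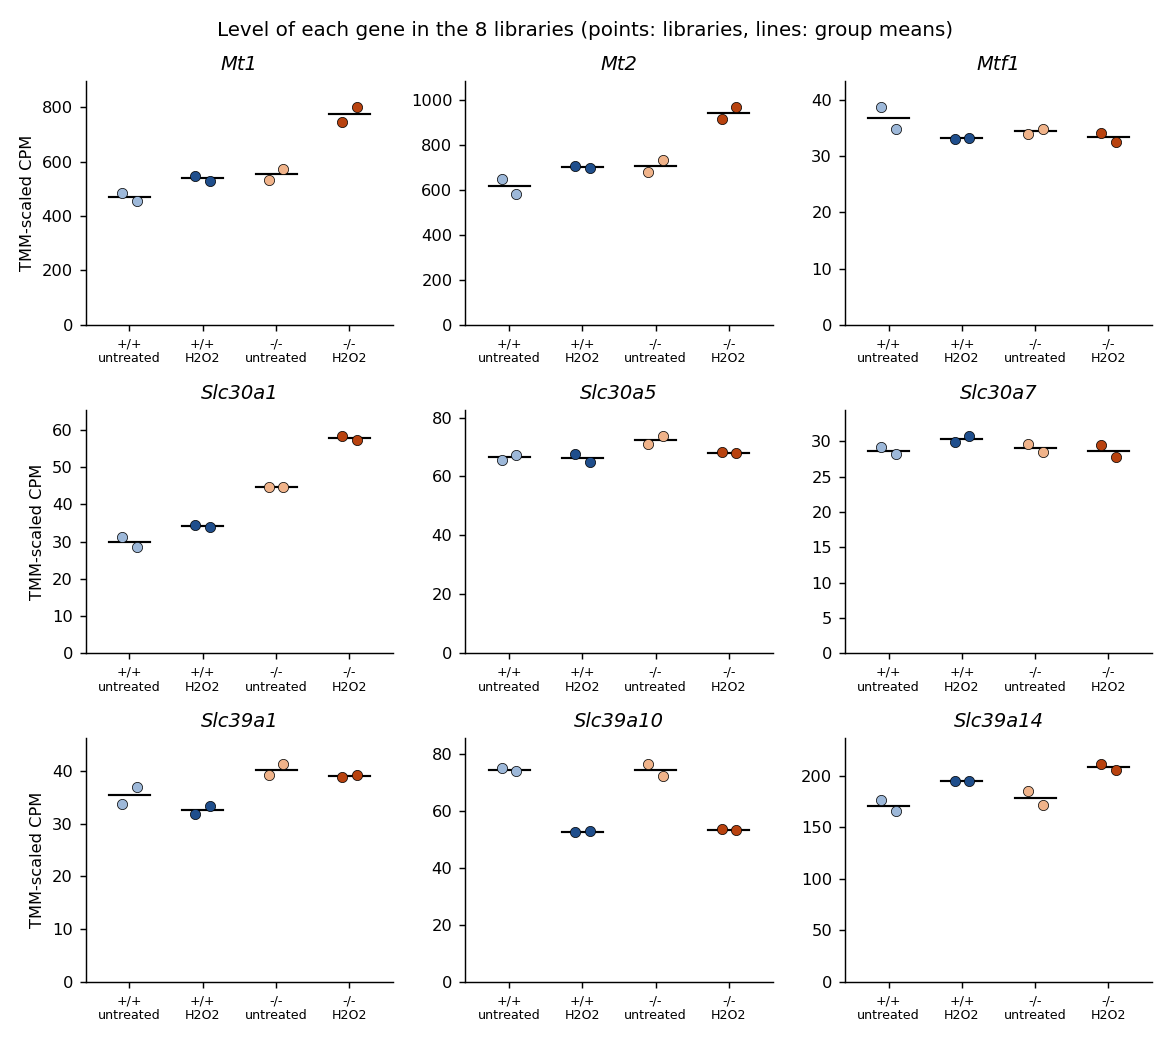
TMM-scaled CPM (vertical axes, linear and from 0) of the 9 genes in the 4 groups (horizontal axes), with a point for each library and a line at the group mean. Mt1, Mt2 and Slc30a1 were highest in both treated IPO13-/- libraries, and Slc39a10 was lower in the 4 treated than in the 4 untreated libraries of both genotypes.

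After H2O2, 6 of the 9 genes passed the test in IPO13+/+ cells, 4 of them higher and 2 lower, where 25.3% of all genes passed (11.5% higher, 13.8% lower). No member changed 2-fold, as 2.90% of all genes did. Among the 5884 genes with at least the 15728 counts of the lowest member, 39.1% passed and 0.493% changed 2-fold. In IPO13-/- cells 5 of the 9 genes passed, 4 higher and 1 lower, where 29.4% of all genes passed (14.9% higher, 14.4% lower) and 43.7% of those with as many counts. Again none changed 2-fold, against 2.89% of all genes and 0.833% of those with as many counts. On the log2 scale, the median change of the members was 0.08 in wild-type cells and -0.02 in IPO13-/- cells, against 0.00 over all tested genes in both. Among the genes with as many counts, the median was -0.06 in IPO13+/+ cells, with 11.1% higher and 28% lower. In IPO13-/- cells it was -0.01, with 22.2% higher and 21.5% lower. The split between higher and lower calls over all genes depended on the scaling, since with library totals in place of TMM 60.5% rather than 45.4% of the genes called in IPO13+/+ cells were higher.

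Mt1 encodes a metallothionein made in most tissues and induced by zinc, cadmium and oxidants. It stood at 486 and 454 CPM in untreated and 546 and 531 CPM in treated IPO13+/+ libraries. In IPO13-/- libraries it was at 533 and 574 CPM untreated and 748 and 801 CPM treated. Treated libraries lay above untreated ones in both genotypes without overlap, and both treated IPO13-/- libraries lay above the other 6. The log2 fold change was 0.20 (SE 0.04, FDR = 0.001139) in IPO13+/+ and 0.49 (SE 0.04, FDR = 9.6e-10) in IPO13-/- cells, or 1.15-fold and 1.4-fold.

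Mt2, its neighbour and close relative, followed the same order of groups. Its level was 649 and 584 CPM in untreated and 705 and 697 CPM in treated IPO13+/+ libraries. In IPO13-/- libraries it rose from 679 and 733 CPM to 918 and 968 CPM. Groups of the same genotype did not overlap, although the gap in IPO13+/+ cells was smaller than the distance between the untreated pair. The log2 fold change was 0.19 (SE 0.04, FDR = 0.00258) in IPO13+/+ and 0.42 (SE 0.04, FDR = 2.8e-08) in IPO13-/- cells. Without the second untreated IPO13+/+ library, the change in IPO13+/+ cells was 0.11 and no longer passed (FDR = 0.05093). An antisense gene that was not in the count tables shares 432 of the 588 exon bases of Mt2, and reads from it could not be told apart without strand.

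The counts of Mt1 per count of Mt2 lay between 0.749 and 0.784 in the 6 libraries other than the treated IPO13-/- pair, where they were 0.815 and 0.827. This ratio does not depend on library scaling. The larger rise of Mt1 was thus seen within each treated IPO13-/- library, and the difference in ratio was not tested.

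Slc30a1 encodes ZnT1, the exporter that moves zinc out of the cell across the plasma membrane. It rose from 31.3 and 28.5 CPM to 34.4 and 34.0 CPM in IPO13+/+ cells, and from 44.7 CPM in both untreated libraries to 58.5 and 57.4 CPM in IPO13-/- cells. The 4 groups formed 4 levels with no overlap. The log2 fold change was 0.19 (SE 0.05, FDR = 0.005087) in IPO13+/+ and 0.37 (SE 0.05, FDR = 7.0e-07) in IPO13-/- cells. In IPO13+/+ cells it was 0.13 (FDR = 0.08814) without the second untreated library and 0.19 (FDR = 0.06508) without the first treated library, so this call rested on single libraries, while the change stayed positive in all 17 alternatives and passed in 15.

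Slc39a14 encodes ZIP14, an importer of zinc that also carries manganese and iron. Its level was 176 and 165 CPM in untreated and 195 CPM in both treated IPO13+/+ libraries, and 185 and 171 CPM in untreated and 211 and 206 CPM in treated IPO13-/- libraries. The treated libraries were higher in both genotypes. The log2 fold changes were 0.19 (FDR = 0.001647) and 0.23 (FDR = 1.7e-04).

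Slc39a10, which encodes the plasma membrane importer ZIP10, moved the other way. Untreated libraries held 75.0 and 74.0 CPM in IPO13+/+ and 76.5 and 72.3 CPM in IPO13-/- cells. Treated libraries held 52.6 and 52.8 CPM in IPO13+/+ and 53.6 and 53.4 CPM in IPO13-/- cells. The 4 treated libraries thus lay close together and far below the 4 untreated ones. Slc39a10 fell by 0.50 on the log2 scale (SE 0.04, FDR = 1.2e-09) in IPO13+/+ and by 0.48 (SE 0.04, FDR = 2.4e-09) in IPO13-/- cells, and it passed in both genotypes under every alternative run.

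Mtf1, the gene of the zinc-sensing factor itself, was at 38.7 and 34.8 CPM in untreated and 33.1 and 33.3 CPM in treated IPO13+/+ libraries. In IPO13-/- cells it was at 33.9 and 34.8 CPM untreated and 34.1 and 32.5 CPM treated, and those groups overlapped. The log2 fold change in IPO13+/+ cells was -0.15 (SE 0.05, FDR = 0.04156) and passed in only 3 of 17 alternatives, and it was -0.07 (FDR = 0.4424) without the first untreated library and -0.22 (FDR = 0.002136) without the second. In IPO13-/- cells it was -0.05 (FDR = 0.5933). The exons of Mtf1 share 721 bases with a gene on the other strand that held 573 to 758 counts, and whether the counting used strand is not given in the sources used here.

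The other 3 transporters did not pass after H2O2. Slc30a5 and Slc30a7 encode ZnT5 and ZnT7, which load zinc into the early secretory pathway, and Slc39a1 encodes the plasma membrane importer ZIP1. Slc30a5 lay between 65.0 and 73.9 CPM and Slc30a7 between 27.8 and 30.8 CPM over all 8 libraries. Their log2 fold changes in IPO13+/+ cells were -0.01 and 0.08, and in IPO13-/- cells -0.09 and -0.02 (FDR = 0.153 or more). With library totals in place of TMM, Slc30a5 passed in IPO13-/- cells at -0.12 (FDR = 0.04212). Slc39a1 lay between 31.8 and 41.3 CPM, with log2 fold changes of -0.12 (FDR = 0.0983) in IPO13+/+ and -0.05 (FDR = 0.5817) in IPO13-/- cells. Without the first untreated IPO13+/+ library the former was -0.18 and passed (FDR = 0.0137).

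**Figure D2:**
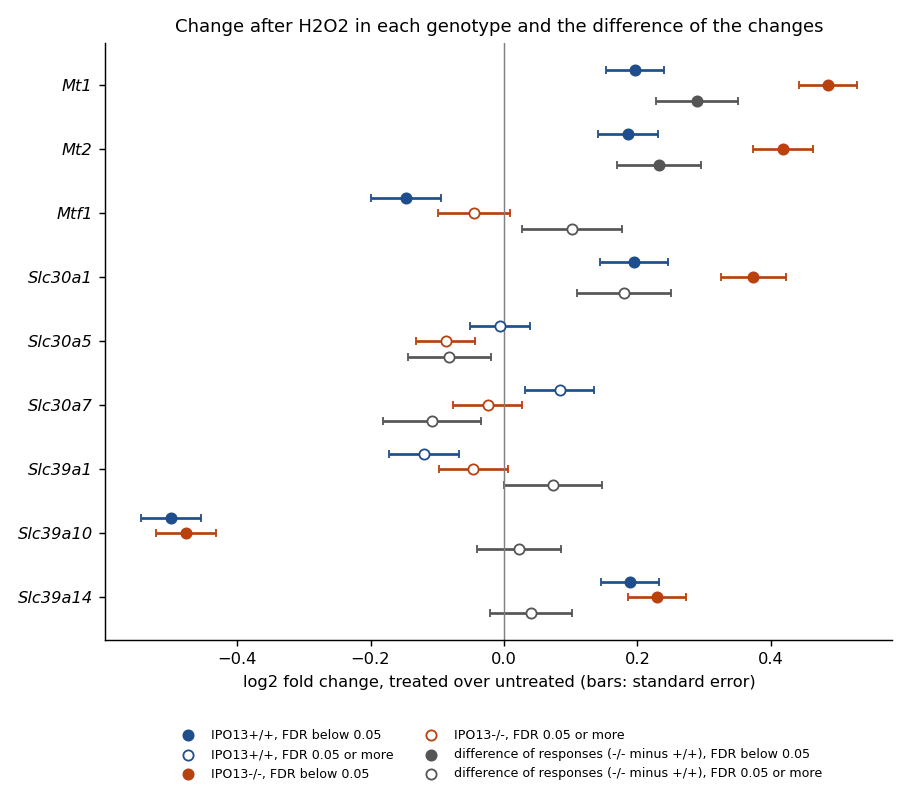
Log2 fold change of treated over untreated cells (horizontal axis) for each gene (vertical axis) in IPO13+/+ (blue) and IPO13-/- cells (orange), and the difference of these changes (grey). Bars are standard errors and filled points passed an FDR of 0.05. Mt1 and Mt2 are the genes with a filled grey point, at 0.29 and 0.23, and Slc39a10 is near -0.5 in both genotypes.

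Whether the response to H2O2 differed between genotypes was tested as an interaction, and 2 of the 9 genes passed, both metallothioneins and both with the larger rise in IPO13-/- cells and neither with a 2-fold difference (0.144% of all genes). Over all genes 2.71% passed, 2.01% with a higher and 0.705% with a lower response in IPO13-/- cells, and among the 5884 genes with as many counts as the members 4.89% passed. The response of Mt1 was larger by 0.29 on the log2 scale (SE 0.06, FDR = 0.006882) and that of Mt2 by 0.23 (SE 0.06, FDR = 0.04417). Mt1 passed in 10 of 16 alternatives and Mt2 in 2 of 16, and both differences kept their sign in all of them. Without the first untreated IPO13-/- library the difference was 0.22 (FDR = 0.3434) for Mt1 and 0.16 (FDR = 0.5742) for Mt2. Without the first untreated IPO13+/+ library the difference of Mt2 was 0.15 (FDR = 0.08751). It was 0.23 (FDR = 0.1408) for Mt1 without the second treated IPO13-/- library and 0.27 (FDR = 0.09661) without the second treated IPO13+/+ library, while without the second untreated IPO13-/- library it was 0.34 (FDR = 0.05785). With every library kept, Mt1 also did not pass with limma-voom, the tool of the study, or with the expression filter filterByExpr. The Mt1 call therefore depended on several single libraries and on the tool and filter used.

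Slc30a1 showed a difference of 0.18 (SE 0.07) in the same direction that did not pass (FDR = 0.1957). Without the second untreated IPO13+/+ library it was 0.25 and passed (FDR = 0.03082). For Slc39a10 the difference of responses was 0.02 (SE 0.06, FDR = 0.9765), and for Slc39a14 it was 0.04 (SE 0.06, FDR = 0.8612). The remaining 4 genes had differences between -0.11 and 0.10 with FDR = 0.5453 or more. The interaction median was 0.07 for the members, 0.02 for all tested genes and 0.05 for those with as many counts as the members. Over all genes, the calls were mostly towards a higher response in IPO13-/- cells with TMM scaling (74.0%) and mostly towards a lower one with library totals (30.8% higher), where Mt1 still passed with a higher response (0.22, FDR = 0.04262) and Mt2 did not (0.16, FDR = 0.1748).

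Between the genotypes, 5 of the 9 genes passed in untreated cells, all higher in IPO13-/- cells, where 38.2% of all genes passed (18.7% higher, 19.4% lower). Of the genes with as many counts as the members, 53.7% passed. No member differed 2-fold, against 4.71% of all genes and 0.459% of those with as many counts. In treated cells 4 of the 9 passed, again all higher, where 36.6% of all genes passed (19.1% higher, 17.5% lower), 47.9% of those with as many counts, and 4.56% of all genes and 0.374% of those with as many counts differed 2-fold, none of them a member. Each of these comparisons shares 2 libraries with each of the stress comparisons. The members' median log2 fold change was 0.12 untreated and 0.10 treated, against 0.00 for all genes in both. For the genes with as many counts it was -0.05 untreated, with 19% higher and 34.7% lower in IPO13-/- cells. In treated cells it was -0.003, with 25% higher and 22.9% lower. With library totals in place of TMM, 67.1% rather than 49.0% of the genes called in untreated cells were higher in IPO13-/- cells.

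Slc30a1 differed most. Its 2 untreated IPO13-/- libraries, both at 44.7 CPM, lay above untreated (31.3 and 28.5 CPM) and treated (34.4 and 34.0 CPM) IPO13+/+ libraries alike. The log2 fold change was 0.58 (SE 0.05, FDR = 3.8e-10) in untreated cells, or 1.5-fold, and 0.76 (SE 0.05, FDR = 1.4e-12) in treated cells, or 1.69-fold. Over the 17 alternatives it ranged from 0.51 to 0.66 and from 0.74 to 0.77, and it passed in each. An antisense gene that shares 468 exon bases with Slc30a1 held 33 to 64 counts, against 1998 to 3789 for Slc30a1.

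Mt1 and Mt2 were also higher in IPO13-/- cells before any treatment, by 0.23 (FDR = 8.2e-05) and 0.20 (FDR = 9.2e-04) on the log2 scale. The untreated IPO13-/- libraries (533 and 574 CPM for Mt1, 679 and 733 CPM for Mt2) lay near the treated IPO13+/+ ones (546 and 531 CPM, 705 and 697 CPM) and overlapped with them. Without the second untreated IPO13-/- library the difference of Mt2 was 0.14 (FDR = 0.09236), and without the second untreated IPO13+/+ library it was 0.12 (FDR = 0.0225). After H2O2 the differences between genotypes were 0.52 (FDR = 1.9e-10) for Mt1 and 0.43 (FDR = 1.4e-08) for Mt2.

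Slc39a1 was at 33.8 and 37.0 CPM in untreated IPO13+/+ and 39.2 and 41.3 CPM in untreated IPO13-/- libraries. In treated cells it was at 31.8 and 33.3 CPM against 38.8 and 39.2 CPM. The IPO13-/- libraries were above the IPO13+/+ libraries of the same treatment, by 0.19 (FDR = 0.005043) and 0.26 (FDR = 2.3e-04) on the log2 scale. The untreated difference was 0.12 (FDR = 0.08163) without the first untreated IPO13+/+ library and 0.15 (FDR = 0.09396) without the second untreated IPO13-/- library.

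Slc30a5 passed in untreated cells, with 65.7 and 67.4 CPM in IPO13+/+ and 71.0 and 73.9 CPM in IPO13-/- libraries. Its log2 fold change was 0.12 (FDR = 0.03074), and it passed in 12 of 17 alternatives, with 0.20 (FDR = 5.3e-04) under library totals. It did not pass with DESeq2 (FDR = 0.06304) or without the first untreated IPO13+/+ (FDR = 0.1037), the second untreated IPO13-/- (FDR = 0.1893) or either treated IPO13+/+ library (FDR = 0.05166 and FDR = 0.05168). In treated cells the difference was 0.04 (FDR = 0.5523). Without the second untreated IPO13-/- library 2 of the members passed in untreated cells, and 3 without the first untreated IPO13+/+ library.

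The other 4 genes did not pass between genotypes. Slc39a10 differed by 0.00 in untreated and 0.02 in treated cells, with FDR = 1 and FDR = 0.7814. Slc39a14 was 0.06 (FDR = 0.3293) and 0.10 (FDR = 0.07773) higher in IPO13-/- cells. The former passed with library totals, at 0.14 (FDR = 0.01072), and the latter without either untreated IPO13+/+ library (FDR = 0.02714 and FDR = 0.02723). Mtf1 differed by -0.10 (FDR = 0.1619, and -0.17 with FDR = 0.01199 without the second untreated IPO13+/+ library) and 0.00 (FDR = 0.9912), and Slc30a7 by 0.02 (FDR = 0.768) and -0.08 (FDR = 0.236).

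**Figure D3:**
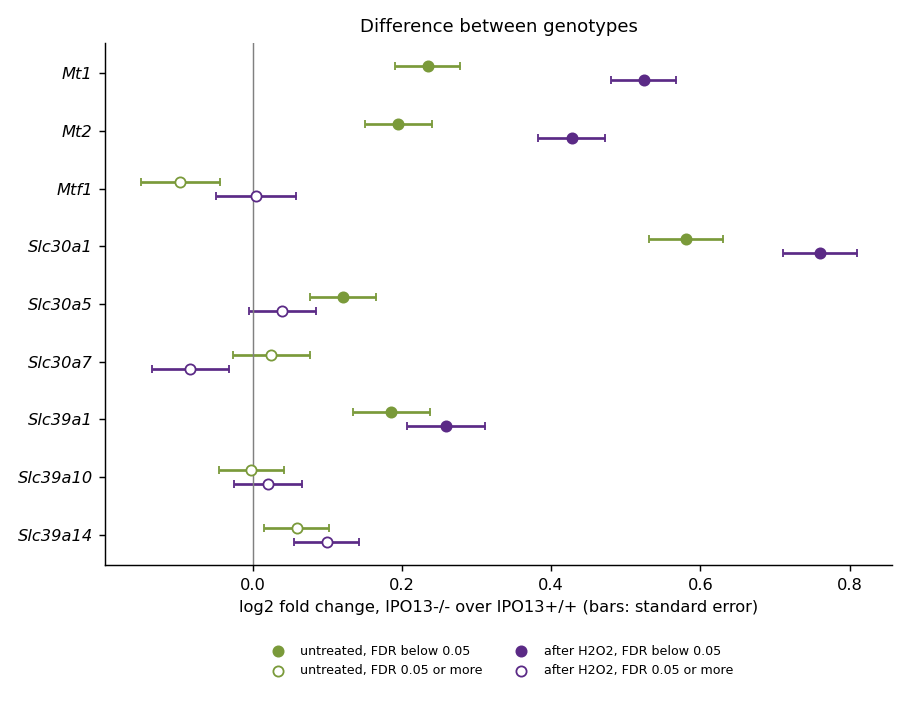
Log2 fold change of IPO13-/- over IPO13+/+ cells (horizontal axis) for each gene (vertical axis) in untreated (green) and treated cells (purple). Bars are standard errors and filled points passed an FDR of 0.05. Slc30a1 stands farthest to the right at 0.58 and 0.76, and Mt1 and Mt2 lie farther right in treated than in untreated cells.

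The 20 other metallothionein and zinc transporter genes were all listed and tested. In IPO13+/+ cells 1 rose and 1 fell after H2O2, in IPO13-/- cells 3 rose and 4 fell, and 2 passed in the interaction with the higher response in IPO13-/- cells. The shares over all genes were 25.3%, 29.4% and 2.71%. Between genotypes 5 were higher and 2 lower in untreated IPO13-/- cells, and 6 were higher and 5 lower in treated ones, where 38.2% and 36.6% of all genes passed. Slc39a7, which encodes the endoplasmic reticulum zinc channel ZIP7, had the highest level of the 20 per kilobase of transcript (52.4 ± 1.10 CPM per kb in untreated IPO13+/+ cells, SD, n = 2). It lay between 117 and 123 CPM and did not pass in any comparison. Slc39a4, the gene of the importer ZIP4, came next with 27.2 ± 0.394 CPM per kb. It was at 73.9 and 75.5 CPM in untreated IPO13+/+ and 50.2 and 52.0 CPM in untreated IPO13-/- libraries, a log2 fold change of -0.55 (FDR = 3.3e-10). In treated cells, Slc39a4 was at 69.0 and 68.8 CPM in IPO13+/+ and 54.6 and 59.4 CPM in IPO13-/- libraries, so it was lower in IPO13-/- cells with either treatment. After H2O2 its log2 fold change was -0.12 (FDR = 0.06754) in IPO13+/+ and 0.16 (FDR = 0.01232) in IPO13-/- cells. The difference of 0.27 passed in the interaction (FDR = 0.02009). Whether the calls of genes outside the 9 members, here and below, hold in the alternatives was not examined. Over all genes the interaction calls numbered 527 in the main test and 255 with limma-voom.

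Of the 20 genes, 3 differed 2-fold in a comparison. Slc30a3 encodes ZnT3, known as the transporter that loads zinc into synaptic vesicles. It rose from 6.45 and 5.52 CPM to 9.32 and 9.49 CPM in IPO13+/+ libraries and from 4.99 and 5.72 CPM to 12.5 and 11.7 CPM in IPO13-/- libraries. The log2 fold changes were 0.65 (FDR = 5.5e-07) and 1.18 (FDR = 5.4e-12), and their difference of 0.53 passed in the interaction (FDR = 0.009637). Slc30a2, the gene of the vesicular transporter ZnT2, was at 9.39 to 10.1 CPM in the IPO13+/+ libraries and 33.2 to 37.2 CPM in the IPO13-/- libraries. Its log2 fold change between genotypes was 1.86 (FDR = 2.9e-19) untreated and 1.88 (FDR = 3.6e-19) treated, and it did not pass after H2O2 in either genotype. Slc39a8, which encodes the zinc and manganese importer ZIP8, was low, at 1.21 to 1.59 CPM in IPO13+/+ and 2.75 to 2.87 CPM in IPO13-/- libraries, with log2 fold changes of 0.82 (FDR = 5.0e-06) and 1.02 (FDR = 3.1e-07). Mt3 held 117 to 144 counts and Mt4 22 to 53 counts per library, far fewer than Mt1 and Mt2.

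**Figure D4:**
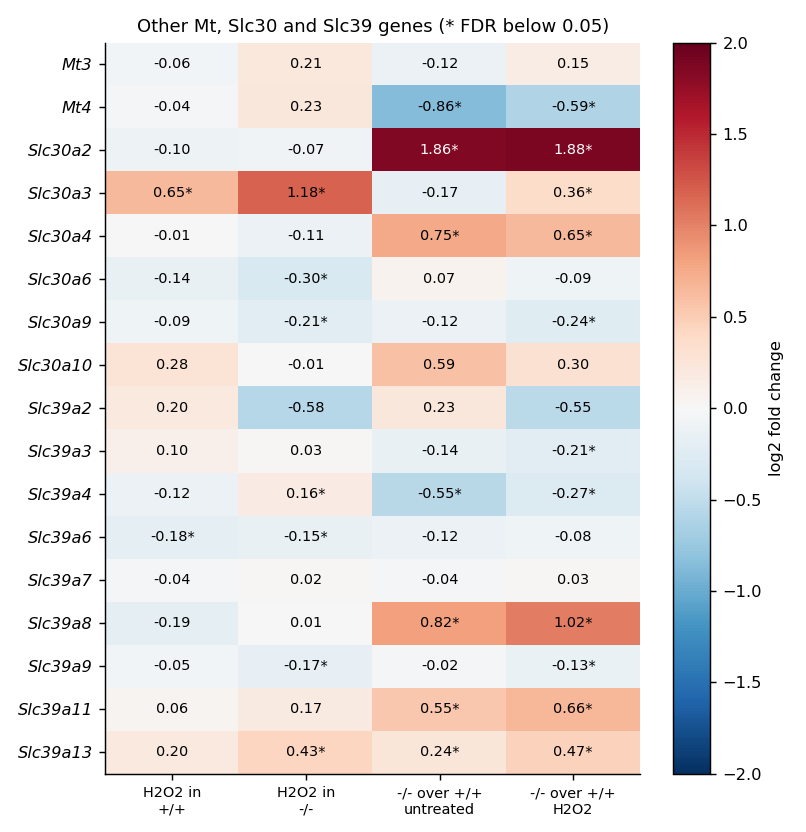
Log2 fold changes (colour and printed value) of the 17 of these 20 genes with at least 80 counts over all libraries (rows) in the stress and genotype comparisons (columns). Asterisks mark an FDR below 0.05. Slc30a2 differed most between genotypes, at 1.86 and 1.88, and Slc30a3 rose most after H2O2, at 0.65 and 1.18.

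Of 4 other genes known to depend on MTF1, 1 passed after H2O2 in IPO13+/+ cells and 3 in IPO13-/- cells, all higher, beside 25.3% and 29.4% of all genes. They were Csrp1, the gene of a LIM domain protein, with log2 fold changes of 0.32 (FDR = 7.8e-06) and 0.37 (FDR = 9.7e-07), and, in IPO13-/- cells, Gclc, the gene of the rate-limiting enzyme of glutathione synthesis, with 0.34 (FDR = 2.7e-06), and Ndrg1 with 0.22 (FDR = 0.007737). Between genotypes the direction was mixed, with 1 higher and 2 lower in untreated and 2 higher and 1 lower in treated IPO13-/- cells, beside 38.2% and 36.6% of all genes. Gclc, unlike Mt1, Mt2 and Slc30a1, was lower in untreated IPO13-/- cells, by -0.33 on the log2 scale (FDR = 2.5e-06). In the interaction 1 of the 4 passed, Ndrg1, at 0.34 (FDR = 0.02975), beside 2.71% of all genes.

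The patterns most like the mean profile of Mt1 and Mt2 over the 8 libraries, among 12196 genes with a mean level of at least 1 CPM, were those of Otud1, Srxn1, Klhl18, Fam50a and Med26, each with a Pearson r of 0.99 on the log2 scale. Otud1, the gene of a deubiquitinase, had mean levels of 18.6, 22.1, 22.5 and 32.2 CPM in untreated and treated IPO13+/+ and untreated and treated IPO13-/- cells. Srxn1, which encodes the peroxiredoxin-reducing enzyme sulfiredoxin, had 90.0, 100.5, 101.8 and 126.7 CPM. The r does not reflect the size of the change. The slope on the metallothionein profile (log2 per log2) was 1.15 for Otud1, 0.713 for Srxn1 and 0.746 for Fam50a. It was only 0.357 for Med26 and 0.2065 for Klhl18, whose mean levels were 11.45, 11.72, 11.79 and 12.56 CPM in the same order of groups. In total 72 genes had an r of at least 0.95. Slc30a1 ranked 195 with an r of 0.92 and Slc39a14 ranked 792 with 0.82, while Mtf1 had an r of -0.50 and Slc39a10 of -0.63. With 4 groups of 2 libraries these values are a description, since all genes share the same libraries and scaling.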

How the data were processed

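The authors deposited, for each of the 8 libraries, raw counts of reads per gene symbol and the same values as CPM. The deposited CPM equal the count divided by the library total within 0.0005, so the raw counts were used throughout and CPM only for this check. The methods state mapping to mm10, and the submitters' processing notes name bcl2fastq, STAR 2.3.1, HTSeq and limma. Their settings, the gene annotation and the use of strand are not given in the sources used here. Of the 23420 rows, 4 carried repeated symbols and were kept apart.

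Counts of 19424 genes with at least 1 count were fitted in R 4.3.3 with edgeR 4.0.16 (quasi-likelihood test, TMM factors of 0.970 to 1.028, 1 coefficient per group, all 8 libraries). Standard errors were obtained from the F statistic, as the size of the log2 fold change over the root of F. The biological coefficient of variation was 3.36%. P-values were adjusted by Benjamini-Hochberg over all tested genes, and the 5 comparisons were the 2 stress responses, the 2 genotype differences and their interaction. Alternatives were limma-voom (limma 3.58.1), DESeq2 1.42.0, other factors and filters, fits of only the libraries compared, a replicate block, and leaving out each library. Their results by gene were taken for the 9 members only. The procedure was also run on simulated counts with known changes in the treated IPO13-/- libraries only. These counts had the same spread in every group, unlike the real libraries, so they cannot show how far the reported calls hold. Positions come from GENCODE M21.

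All 9 members are named in every comparison. Of the other lists, genes past the FDR and 2-fold and the highest-level genes are named, with the others given by counts and the examples of MTF1-dependent and copper and iron genes chosen after their values were seen. Likeness was Pearson's r with the mean-centred Mt1 and Mt2 profile, the 5 highest being named. The members and lists were chosen with earlier results of these data known. Depth limits counting precision only, and intervals do not cover spread between cultures.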

Additional observations from a re-analysis of the deposited data

Results flagged for a closer look

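The stress response differed between genotypes for the metallothionein genes in the interaction test of edgeR. For Mt1 the rise after H2O2 was larger in IPO13-/- than in IPO13+/+ cells by 0.2893 on the log2 scale (FDR = 0.006882), and for Mt2 by 0.2324 (FDR = 0.04417). The call held in 10 of 16 alternatives for Mt1 and in 2 of 16 for Mt2, and without the first untreated IPO13-/- library the FDR was 0.3434 for Mt1 and 0.5742 for Mt2. In both genes both treated IPO13-/- libraries lay above the other 6 libraries.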

How the results depend on the processing

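Of 756 fold changes of members under the alternatives, 671 kept their direction and their side of the FDR threshold, 45 no longer passed, 10 newly passed and 30 changed sign. Of 168 counts of members under the alternatives, 152 stayed within 1.5 times. The count of members past the FDR in the interaction was 2 as reported and 1 with relative log expression factors, library totals, at least 10 counts, no filter and DESeq2. It was 0 with filterByExpr and limma-voom, and 0 to 3 when a library was left out. In untreated cells the count between genotypes was 5, and 2 to 6 when a library was left out. The sign changes concerned values near 0 that did not pass. For Slc30a5 after H2O2 in IPO13+/+ cells (-0.01) they were 0.0048 with relative log expression factors and with DESeq2, 0.0336 with library totals, 0.0228 with filterByExpr, 0.0209 in the libraries compared alone, and -0.0341 to 0.0220 without single libraries. For Slc39a10 between untreated genotypes (-0.0018) they were 0.0789 with library totals, 0.0137 with filterByExpr, 0.0118 in the libraries compared alone, and -0.0241 to 0.0436 without single libraries. Mtf1 between treated genotypes was -0.0102 with relative log expression factors, -0.0103 with DESeq2, and -0.0307 to 0.0392 without single libraries. In the interaction, library totals gave -0.0490 for Slc39a10 and -0.0314 for Slc39a14, and leaving out single libraries gave -0.0228 to 0.0448 and -0.0189 to 0.0850. In IPO13-/- cells after H2O2, leaving out single libraries gave -0.0565 to 0.0307 for Slc30a7, -0.0791 to 0.0107 for Slc39a1 and -0.0682 to 0.0017 for Mtf1. The cause of these shifts was not tested. With 1 library left in a group, that library is assumed to vary like the other groups, although the chi-square per gene between the libraries of a group ran from 2.26 to 15.

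Replicates share only a number in the labels. The deviations of same-numbered libraries correlated between -0.08 and 0.61 over 9209 genes in the 6 pairs of groups, and the numbers are not known to pair the libraries. Blocking on the replicate number kept every count of members within 1.5 times, gave 0.2895 (FDR = 2.1e-05) for the interaction of Mt1 and 0.2325 (FDR = 0.00104) for Mt2, and let Slc39a1 after H2O2 in IPO13+/+ cells (FDR = 0.04268) and Slc39a14 between treated genotypes (FDR = 0.02178) pass. Over all genes the interaction calls numbered 527 as reported, 1291 with the block, 349 with filterByExpr, 369 with at least 10 counts, 255 with limma-voom, 287 with DESeq2, and 73 to 1157 without single libraries. After H2O2 in IPO13+/+ cells 4908 genes were called as reported and 3163 in the libraries compared alone.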

Other observations

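Of 12 copper and iron handling genes, 3 rose and 2 fell after H2O2 in IPO13+/+ cells, 5 rose and 3 fell in IPO13-/- cells, and 2 passed in the interaction (edgeR, FDR over all genes). Over all genes 25.3%, 29.4% and 2.71% passed, and among those with as many counts as the metallothionein and zinc genes 39.1%, 43.7% and 4.89%. Hmox1, which encodes the haem-degrading enzyme heme oxygenase 1, was at 222 CPM in both untreated and 331 and 327 CPM in treated IPO13+/+ libraries, and at 121 and 125 CPM untreated and 250.3 and 247.7 CPM treated in IPO13-/- libraries. Its log2 fold change was 0.57 (FDR = 4.3e-12) in IPO13+/+ and 1.02 (FDR = 2.1e-17) in IPO13-/- cells, with a difference of 0.45 (FDR = 9.6e-06). Unlike Mt1 and Mt2, Hmox1 was lower in IPO13-/- than in IPO13+/+ cells, by -0.86 on the log2 scale (FDR = 7.5e-16) untreated and -0.40 (FDR = 2.5e-09) treated. Ftl1, the gene of the ferritin light chain, had a log2 fold change of 0.26 (FDR = 6.4e-07) in IPO13-/- cells and a larger response there than in IPO13+/+ cells by 0.18 (FDR = 0.03589).

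Tfrc, the gene of the transferrin receptor through which cells take up iron, fell after H2O2 by 0.47 on the log2 scale (FDR = 4.6e-10) in IPO13+/+ and by 0.40 (FDR = 6.6e-09) in IPO13-/- cells. The treated libraries held 399.9 to 408 CPM and the untreated ones 508 to 563 CPM. Slc11a2, which encodes the iron transporter DMT1, fell by 0.22 (FDR = 9.3e-04) and 0.30 (FDR = 2.2e-05). Between genotypes 3 of the 12 genes were higher and 6 lower in untreated IPO13-/- cells, and 3 were higher and 3 lower in treated ones, where 38.2% and 36.6% of all genes passed.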
